A study of Arabidopsis thaliana with 8 samples.

Results

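The 43 probe sets described here read transcripts of genes of the Arabidopsis plastid genome that encode parts of the photosynthetic machinery. They were taken from all 22810 probe sets on the array by symbol. A probe set was chosen where the platform annotation pairs it with 1 gene whose symbol is psa (photosystem I), psb (photosystem II), pet (cytochrome b6f complex), ndh (NDH complex) or atp (ATP synthase) plus 1 capital letter, or rbcL (the large subunit of Rubisco). Each of the 43 stands for a different gene, and all 43 lie on the plastid chromosome in RefSeq (TAIR10.1). Photosystem II has 15 of them, NDH 10, cytochrome b6f 6, ATP synthase 6, photosystem I 5 and Rubisco 1. The rule used names only and no measured value.

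The study compared shoots of wild-type Arabidopsis thaliana (ecotype Col-0) with shoots of a knockout line in the same ecotype that carries a T-DNA insertion, GABI-268A08, in At4g21320. This gene, Hsa32, encodes a protein that plants make under heat stress. The knockout is represented by this 1 insertion line. Seedlings 15 days old stayed for 2 h at 22 °C (control) or at 37 °C (heat) and were collected directly afterwards, and a sample pools about 100 plants. The 4 groups are wild-type control, heated wild type, knockout control and heated knockout, with 2 biological replicates and so 2 one-colour microarrays each, 8 in all. For wild-type control replicate 1 the labels differ, since its title names a control and its source line does not, and the title was followed.

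Chloroplasts keep a small genome of bacterial descent whose genes code for the core subunits of the thylakoid complexes, while most other subunits are encoded in the nucleus and imported. Plastid genes are transcribed by a bacterial-type RNA polymerase that takes nuclear-encoded sigma factors and by a phage-type polymerase, mostly as units of several genes that are then cut and trimmed. The amount of each RNA depends as much on RNA-binding proteins that protect it from nucleases as on transcription, and in leaves these RNAs are long-lived. Poly(A) tails on plastid RNA are known as marks of decay, and no source used here names the primer used for labelling. Photosystem II is known as a heat-sensitive part of photosynthesis.

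All levels are the deposited signals, 1 per probe set and array, whose mean without the highest and lowest 2% is the same on every array (500.04 to 500.07). A probe set's signals can be compared between arrays, but not with those of another probe set. The targeted gene HSA32 had signals of 657 and 230.0 in unheated wild type, 23175 and 9240.3 in heated wild type, 1125 and 1247 in the unheated knockout and 378 and 589 in the heated one. Both wild-type controls lay below both heated wild-type arrays for this gene, but replicate 1, whose labels differ, read 657 against 230.0 in the other control and lay within the range of the knockout arrays (378 to 1247). The side of the insertion on which its probe set lies was not checked here. The range of each tissue marker describes its own probe set only. Of the shoot markers the RNA of Rubisco activase (RCA) lay between 16090.2 and 36539 and that of LHCB4.1 between 19949.8 and 40556. The root hair expansin genes EXPA7 and EXPA18 ran from 11.3 to 96.8 and from 23.3 to 144.5. These were the only named probe sets among 12 shoot and 10 root markers, and 0 of 3 seed and 0 of 3 flower markers had one. The control probe set for 25S ribosomal RNA read 385 and 1363 in the knockout controls and 850.1 in heated knockout replicate 1. On the other 5 arrays it read from 13530.3 to 20677. The control probe set for 5S ribosomal RNA split the arrays in another way, by replicate within each genotype. It read from 14.8 to 43.5 on the arrays of wild-type replicate 1 and knockout replicate 2. On those of wild-type replicate 2 and knockout replicate 1 it read from 549.7 to 1359.6. The cause of this split was not tested. The ratio of 3′ to 5′ signal of actin ran from 1.65 to 9.28, with both knockout controls lowest (2.1 and 1.65). The other ratios did not share this order. That of GAPDH ran from 1.11 to 1.7, with the knockout controls at 1.7 and 1.23. That of ubiquitin ran from 1.5 to 3.15, with the knockout controls at 2.03 and 1.97.

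With these data 0 of the 42 tested plastid photosynthesis genes passed the test for a change with heat or between the genotypes. Since these are bulk samples, fewer cells of a type and less RNA per cell cannot be told apart. The test was limma on log2(signal + 29), two-sided, with Benjamini-Hochberg adjustment over all 15919 probe sets tested and a threshold of 0.05. The gene left out of the test is ndhF, a membrane subunit of NDH, whose signals of 4.0 to 60.8 (mean 23.2) fell under the filter on dim probe sets (61.7). For heat in wild type, 2.55% of all tested probe sets passed (1.84% higher and 0.71% lower), against 0 of 42 members. For heat in the knockout 6.78% of all passed (3.13% higher and 3.66% lower), and again 0 of 42 members. Between the genotypes 0.0% passed at 22 °C, 0.0% after heat and 0.0% in the interaction, which tests whether the heat response differs between the genotypes. So 0 members in these comparisons is no more than the background. The targeted gene HSA32 did not pass either, with -4.87 ± 0.57 (SE, adjusted p = 0.23) after heat and -6.39 ± 0.80 (adjusted p = 0.42) in the interaction. A result of 0 members between the genotypes therefore says little about the plastid RNAs. At an unadjusted p under 0.05 there were 0 members against 16.9% of all probe sets for heat in wild type, and 4 members (9.52%) against 23.4% for heat in the knockout. Between the genotypes there were 0 members against 0.515% at 22 °C, 2 members (4.76%) against 1.76% after heat, and 0 members against 0.553% in the interaction. Without both arrays of wild-type replicate 1, one of which has labels that differ, 1 member passed, petN for heat in the knockout. The same holds with a block that pairs replicate 1 of one genotype with replicate 2 of the other, which was chosen after seeing the data. In both fits more probe sets passed over the whole array as well. With the block 2859 of 15919 passed for heat in the knockout, against 1080 in the main fit. The fold change of petN was -1.25 in both fits, as in the main fit.

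The groups of 2 arrays leave wide intervals, and a missed threshold does not show that a level stayed the same. The 95% interval of the log2 fold change lay wholly between -1 and 1, that is, within a doubling or a halving, for 7 of 42 members with heat in wild type and 5 of 42 in the knockout. This held for 14 of 42 between genotypes at 22 °C, 11 of 42 after heat and 1 of 42 in the interaction. Over all tested probe sets the shares were 16.5%, 14.0%, 30.7%, 26.9% and 0.634%, in the same order, against 16.7%, 11.9%, 33.3%, 26.2% and 2.38% of the members.

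**Figure D1:**
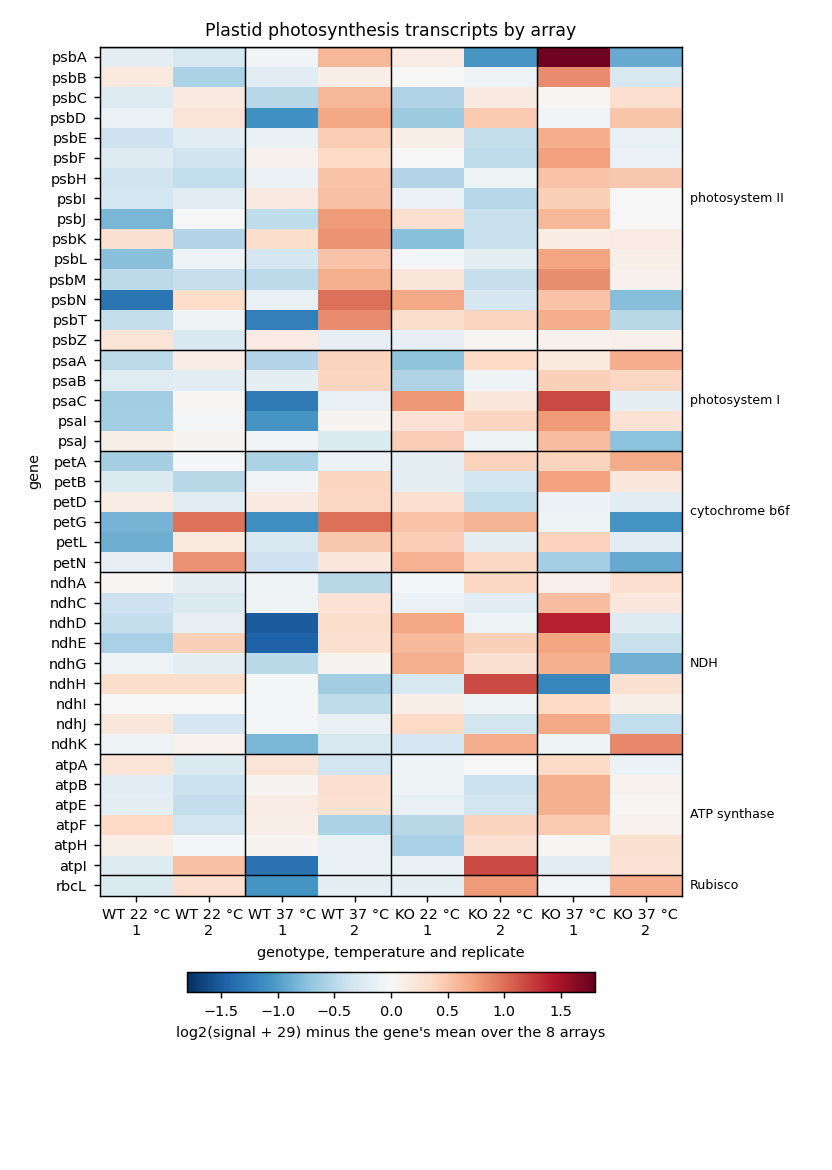
Level of each of the 42 tested plastid photosynthesis genes (rows, by complex) on each of the 8 arrays (columns), as log2(signal + 29) minus that gene's mean over the arrays; WT is wild type, KO the knockout. Heated wild-type replicate 2 and heated knockout replicate 1 are red for most photosystem II genes (mean deviations 0.55 and 0.56). The other replicates of these groups had means of -0.27 and -0.07. Heated knockout replicate 2 was mixed, with a median of 0.0004 and values such as 0.49 (psbH) and -0.90 (psbA).

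The replicates of each group were compared first. The members' median replicate SD was 0.49 on the log2 scale, against 0.40 over all tested probe sets and 0.69 over the other plastid genes. In heated wild type 33 of 42 members read higher in replicate 2 (median difference, replicate 1 minus 2, of -0.54), and in the heated knockout 30 of 42 read higher in replicate 1 (median 0.49). In the controls the members went both ways, with medians of -0.08 in wild type and 0.13 in the knockout. Without regard to direction, the median difference was 0.58 in heated wild type and 0.58 in the heated knockout, against 0.35 and 0.50 in their controls. Over all tested probe sets it was 0.59, 0.38, 0.40 and 0.38 in the same order. The widest replicate SDs were those of psbA (1.05), petG (1.04), ndhD (0.91) and psbN (0.91), and the narrowest those of ndhC (0.18), ndhI (0.19), psbZ (0.22) and ndhA (0.23).

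The arrays on which the members were high were also those with the highest top signals. The brightest probe set read 43815 on heated wild-type replicate 2 and 57211 on heated knockout replicate 1, against 21808 to 36679 on the other 6 arrays. The 4 nuclear photosystem genes with a named probe set deviated on the same arrays, by 0.39 and 0.69. Quantile normalization, which gives every array the same spread of signals, brought the mean deviation of the photosystem II genes on these arrays to 0.27 and 0.21, and that of the nuclear photosystem genes to -0.10 and -0.04.

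**Figure D2:**
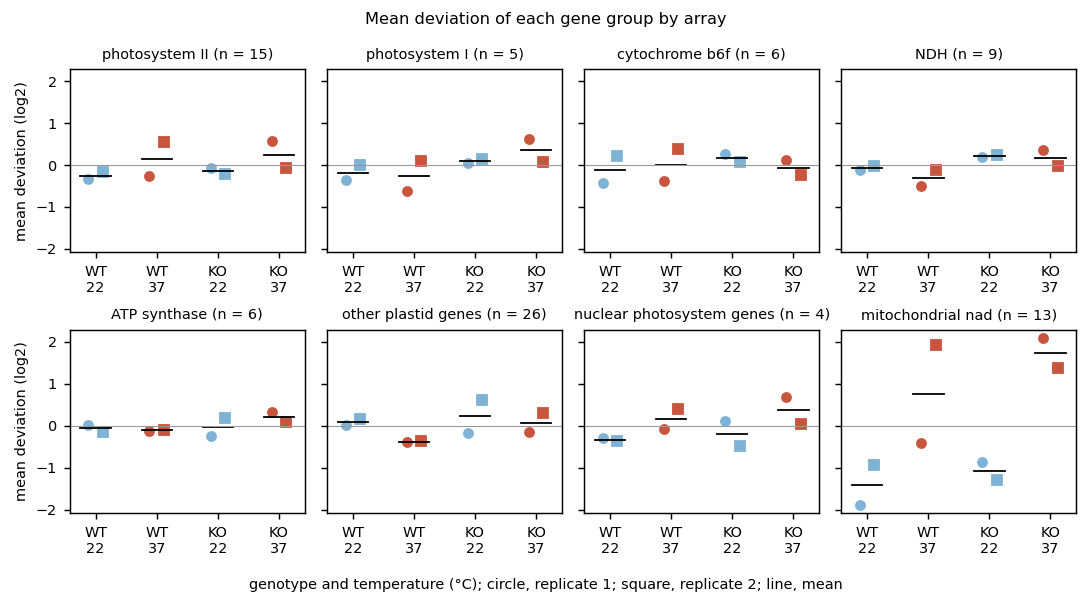
Mean deviation of each gene group from its average over the 8 arrays, in log2 units, for the 5 plastid-encoded complexes and, for comparison, other plastid genes, nuclear photosystem genes and mitochondrial nad probe sets; a circle is replicate 1, a square replicate 2, a line the mean of the group, blue 22 °C and red 37 °C. The plastid-encoded complexes stay between -0.62 and 0.62, while the nad probe sets run from -1.89 to 2.08.

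What 2 h at 37 °C did to these RNAs was asked for each complex. Over the 42 members the median log2 fold change was 0.04 in wild type and 0.29 in the knockout, where all tested probe sets had -0.22 and -0.26. Of the members 22 lay above 0 in wild type and 31 in the knockout, or 52.4% and 73.8%, against 34.7% and 35.7% of all tested probe sets. The sign of these medians depends on the scaling, with -0.18 and -0.10 after quantile normalization (14 of 42 members above 0 in each genotype) and 0.36 and 0.62 after centring each array on its median (35 and 36 of 42). All tested probe sets had medians of -0.07 in wild type and -0.07 in the knockout in the first of these and 0.10 and 0.07 in the second. The wild-type median also rests on single arrays, with 0.58 without heated replicate 1, -0.02 without heated replicate 2 and 0.38 without both arrays of replicate 1. In the knockout it was 0.11 without heated replicate 1 and 0.39 without heated replicate 2. In wild type the arrays of the groups did not overlap for 12 members that were higher after heat (13.0% of all probe sets, 28.6% of the members) and 4 that were lower (30.5% of all, 9.52% of the members). In the knockout these counts were 10 higher (18.0% of all, 23.8% of the members) and 2 lower (40.9% of all, 4.76% of the members).

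**Figure D3:**
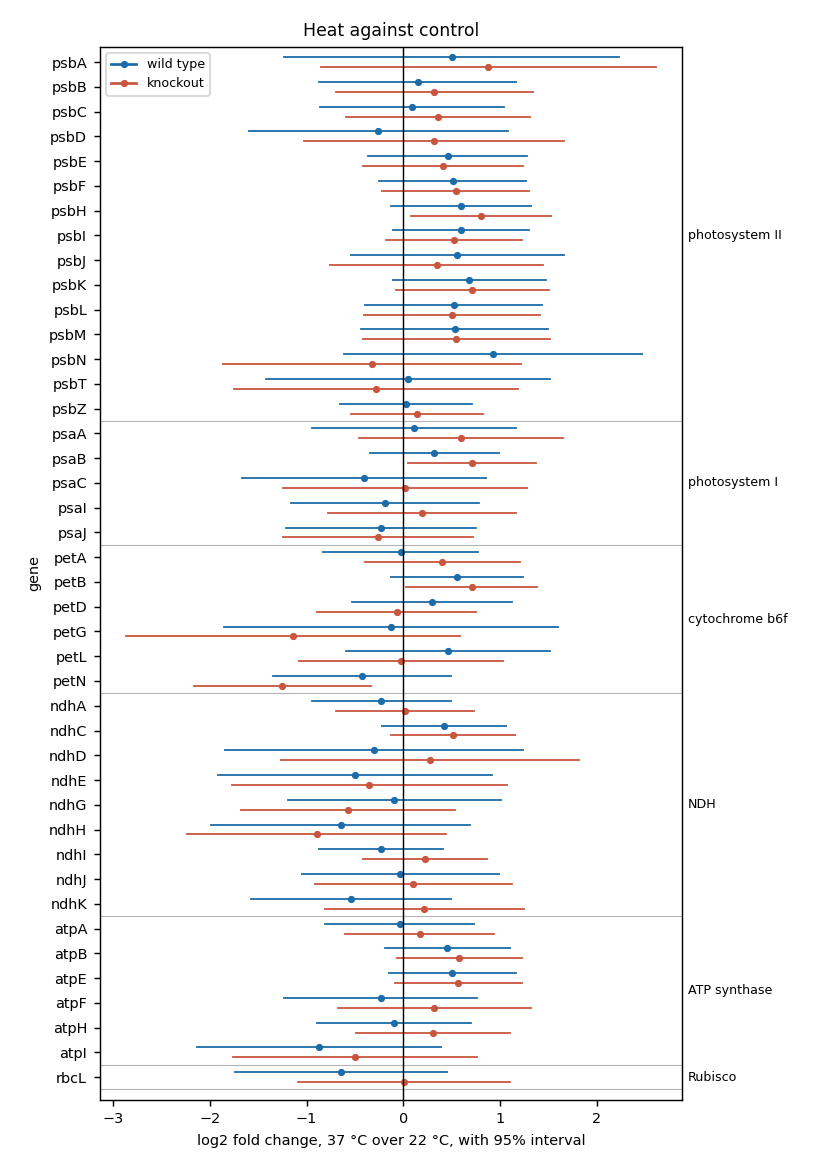
Log2 fold change with heat (37 °C over 22 °C) of each tested plastid photosynthesis gene in wild type (blue) and knockout (red), from limma with the 95% interval, n = 2 arrays a group. For 38 of 42 genes the knockout interval holds 0, and for 42 of 42 the wild-type interval does; petN, at -1.25 in the knockout, lies furthest from 0.

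Photosystem II, which splits water and passes electrons to plastoquinone, had 15 genes with log2 fold changes from -0.26 to 0.93 in wild type (median 0.51) and from -0.32 to 0.88 in the knockout (median 0.41). In wild type 14 of 15 lay above 0 and in the knockout 13 of 15, but after quantile normalization these were 9 and 6 with medians of 0.12 and -0.06, and after centring each array on its median 15 and 15 with medians of 0.83 and 0.74. With both arrays of wild-type replicate 1 left out, the wild-type median was 0.71, and without heated knockout replicate 1 the knockout median was 0.15. None of the 15 passed. psbH, which encodes a small phosphoprotein of the core, read 6463 and 6069 in wild-type controls, 7664 and 11787 in heated wild type, 5749.9 and 7810.1 in the knockout controls and 11820.3 and 11622 in the heated knockout. Both heated arrays lay above both controls in each genotype, and its log2 fold change was 0.60 ± 0.32 in wild type (SE, adjusted p = 0.38) and 0.80 ± 0.32 in the knockout (adjusted p = 0.17). psbK and psbI, for small core subunits, behaved alike in that their heated arrays also lay above their controls in each genotype. psbK read 12831 and 7397 in wild-type controls, 13226 and 18598 in heated wild type, 6301 and 8047 in the knockout controls and 11667 and 11770.1 in the heated knockout. psbI read 6729 and 7385 in wild-type controls, 9384 and 12107 in heated wild type, 7793 and 5894 in the knockout controls and 11320.2 and 8397 in the heated knockout. Their fold changes were 0.69 ± 0.35 and 0.59 ± 0.31 in wild type and 0.72 ± 0.35 and 0.52 ± 0.31 in the knockout, with adjusted p from 0.26 to 0.37.

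The D1 protein of the photosystem II reaction centre, known for its fast turnover, is encoded by psbA. psbA read 3256 and 2990.3 in wild-type controls, 3535 and 5556 in heated wild type, 4039.5 and 1758 in the knockout controls and 12374 and 1952 in the heated knockout. Its replicates in the heated knockout differed more than the groups did, since replicate 1 was the highest of the 8 arrays and replicate 2 lower than 6 of them. The fold change of psbA was 0.50 ± 0.76 in wild type (adjusted p = 0.8) and 0.88 ± 0.76 in the knockout (adjusted p = 0.53), with a 95% interval in the knockout from -0.86 to 2.61. For psbD, which encodes the partner protein D2, the values were -0.26 ± 0.59 and 0.31 ± 0.59. The inner antenna genes psbB (CP47) and psbC (CP43) had 0.15 ± 0.45 and 0.09 ± 0.42 in wild type and 0.32 ± 0.45 and 0.36 ± 0.42 in the knockout. psbE and psbF, for the subunits of cytochrome b559, had 0.46 ± 0.36 and 0.51 ± 0.34 in wild type and 0.41 ± 0.36 and 0.54 ± 0.34 in the knockout. The smallest size of fold change among the photosystem II genes was that of psbZ, at 0.03 ± 0.30 in wild type and 0.14 ± 0.30 in the knockout. The other small subunit genes psbJ, psbL, psbM and psbT and the assembly factor gene psbN had wild-type values from 0.05 (psbT) to 0.93 (psbN) and knockout values from -0.32 (psbN) to 0.55 (psbM).

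Photosystem I, which drives electrons from plastocyanin to ferredoxin, had 5 genes with a median of -0.18 in wild type and 0.19 in the knockout. None of the 5 passed, 2 of 5 lay above 0 in wild type and 4 of 5 in the knockout, and after quantile normalization these were 0 of 5 and 2 of 5. With median centring they were 4 of 5 and 5 of 5, with medians of 0.14 and 0.52. The reaction centre proteins are encoded by psaA and psaB. psaB read 15658 and 15879 in wild-type controls, 16290.0 and 23807 in heated wild type, 12457 and 17168 in the knockout controls and 24353 and 23587 in the heated knockout. Its heated arrays lay above its controls in each genotype, narrowly so in wild type, with 0.32 ± 0.29 in wild type (adjusted p = 0.63) and 0.71 ± 0.29 in the knockout (adjusted p = 0.19). psaA read 7237 and 11076 in wild-type controls, 6979 and 13328 in heated wild type, 6118 and 12976 in the knockout controls and 11364 and 15946 in the heated knockout. Its groups overlapped in each genotype, and replicate 2 was the higher array in all 4 groups, with 0.11 ± 0.46 in wild type and 0.59 ± 0.46 in the knockout. psaJ, for a small subunit, read 6329.8 and 6075 in wild-type controls, 5666 and 4911 in heated wild type, 7971 and 5491 in the knockout controls and 8667 and 3507 in the heated knockout, with -0.23 ± 0.43 in wild type and -0.26 ± 0.43 in the knockout. psaC, whose product carries the terminal iron-sulfur clusters, had -0.40 ± 0.56 and 0.02 ± 0.56, and psaI, for another small subunit, had -0.18 ± 0.43 and 0.19 ± 0.43.

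The cytochrome b6f complex links the photosystems, and its 6 genes ran from -0.43 to 0.56 in wild type (median 0.14) and from -1.25 to 0.71 in the knockout (median -0.05). Above 0 were 3 of 6 in wild type and 2 of 6 in the knockout, with 3 and 1 after quantile normalization and 5 and 4 with median centring. The member with the smallest adjusted p of all 42 in the heat comparisons was petN, for a small subunit. petN read 176 and 373 in wild-type controls, 146 and 231 in heated wild type, 319.6 and 263 in the knockout controls and 119 and 92.0 in the heated knockout. In the knockout both heated arrays lay below both controls, and in wild type the groups overlapped. Its fold change was -1.25 ± 0.40 in the knockout (adjusted p = 0.1, 95% interval from -2.17 to -0.33) and -0.43 ± 0.40 in wild type (adjusted p = 0.64). Over 20 alternatives the knockout value ran from -1.41 to -0.88 with adjusted p from 0.021 to 0.35. It passed under 2 of the 20, namely without both arrays of wild-type replicate 1 (0.03) and with the block that crosses the replicate numbers of the genotypes (0.021).

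petB, which encodes cytochrome b6, read 15126 and 12812 in wild-type controls, 17601 and 23819 in heated wild type, 16200.3 and 14432 in the knockout controls and 30146 and 20676 in the heated knockout. Its heated arrays lay above its controls in each genotype, with 0.56 ± 0.30 in wild type and 0.71 ± 0.30 in the knockout (adjusted p = 0.39 and 0.2). petG, for a small subunit, read 299 and 1119 in wild-type controls, 242 and 1129.7 in heated wild type, 807 and 861 in the knockout controls and 522 and 250.0 in the heated knockout. Its wild-type arrays split by replicate and not by temperature, and in the knockout both heated arrays were lower, with -1.14 ± 0.76 (adjusted p = 0.41) against -0.13 ± 0.76 in wild type. petA (cytochrome f), petD (the subunit that completes the cytochrome b part) and petL (a small subunit) lay between -0.03 and 0.46 in wild type and between -0.07 and 0.41 in the knockout.

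The NDH complex takes part in cyclic electron flow around photosystem I, and its subunits are related to those of respiratory complex I. Of 9 tested genes 1 lay above 0 in wild type (median -0.23) and 6 in the knockout (median 0.10), and after quantile normalization 2 and 3 did, with medians of -0.30 and -0.25. With median centring 6 of 9 lay above 0 in each genotype (medians 0.09 and 0.43), so the wild-type sign depends on the scaling. None of the 9 passed. The one above 0 in wild type with the deposited scaling was ndhC, a membrane-arm gene. ndhC read 7994 and 8644 in wild-type controls, 9971 and 12445 in heated wild type, 9642 and 9054 in the knockout controls and 15234 and 11788 in the heated knockout. It had the smallest replicate SD of all tested members, its heated arrays lay above its controls in each genotype, and its fold changes were 0.42 ± 0.28 in wild type and 0.52 ± 0.28 in the knockout (adjusted p = 0.5 and 0.31). ndhH, for a subunit of the peripheral arm, read 438 and 438 in wild-type controls, 340.0 and 212 in heated wild type, 277 and 819 in the knockout controls and 137 and 423 in the heated knockout. Heated wild type lay below its controls, while in the knockout replicate 2 of the heated plants lay between its controls, with -0.65 ± 0.59 and -0.90 ± 0.59. ndhG, another membrane-arm gene, read 279 and 267 in wild-type controls, 207 and 311 in heated wild type, 486 and 370.3 in the knockout controls and 486 and 152 in the heated knockout, with -0.09 ± 0.49 in wild type and -0.57 ± 0.49 in the knockout. The membrane-arm genes ndhA, ndhD and ndhE and the peripheral-arm genes ndhI, ndhJ and ndhK had values from -0.54 (ndhK) to -0.03 (ndhJ) in wild type and from -0.35 (ndhE) to 0.28 (ndhD) in the knockout.

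ATP synthase is a catalytic head on the stroma side and a rotor and stator in the membrane. With the deposited scaling 2 of its 6 genes lay above 0 in wild type and 5 of 6 in the knockout. The genes atpB (beta subunit) and atpE (epsilon subunit), which are transcribed together, had heated arrays above the controls in each genotype. atpB read 21948 and 19319 in wild-type controls, 26033 and 30747 in heated wild type, 23975 and 19271 in the knockout controls and 39197 and 26434 in the heated knockout. atpE read 18953 and 16024 in wild-type controls, 23545 and 26099.7 in heated wild type, 19585 and 17056 in the knockout controls and 33683 and 21848 in the heated knockout. Their fold changes were 0.46 ± 0.29 and 0.51 ± 0.29 in wild type and 0.58 ± 0.29 and 0.57 ± 0.29 in the knockout, with adjusted p from 0.26 to 0.46. The 4 genes of the other unit, atpI, atpH, atpF and atpA, had values from -0.87 to -0.04 in wild type and from -0.50 to 0.32 in the knockout. atpI, for the membrane subunit through which protons pass, read 339.6 and 595 in wild-type controls, 143 and 369 in heated wild type, 368 and 959 in the knockout controls and 349.9 and 488 in the heated knockout, with -0.87 ± 0.56 in wild type (adjusted p = 0.47) and -0.50 ± 0.56 in the knockout (adjusted p = 0.63). No ATP synthase gene passed, and after quantile normalization 0 of 6 lay above 0 in wild type and 1 of 6 in the knockout. With median centring these were 5 of 6 and 5 of 6.

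The large subunit of Rubisco, the enzyme that fixes CO2, is encoded by rbcL. rbcL read 480.1 and 726 in wild-type controls, 261 and 515 in heated wild type, 511 and 1015 in the knockout controls and 564 and 937 in the heated knockout. Replicate 2 was the higher array in all 4 groups, and the groups overlapped in each heat comparison. Its fold change with heat was -0.64 ± 0.48 in wild type (adjusted p = 0.55) and 0.01 ± 0.48 in the knockout (adjusted p = 0.99).

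Genes that are known to share a transcription unit were set side by side next. Their order was looked up in RefSeq (TAIR10.1), where the genes of 9 of 11 units are direct neighbours among protein-coding genes. In the psbB unit psbN lies in between, and between psaI and petA lie ycf4 and cemA. The values within some units were close. With heat, psbE, psbF, psbL and psbJ had 0.46 to 0.56 in wild type and 0.35 to 0.54 in the knockout. The values of psbK and psbI were 0.59 to 0.69 and 0.52 to 0.72. Genes outside these units had like values, such as psbM with 0.53 and 0.55, and closeness was not tested. In others they were not close. In the unit from psbB to petD they ran from 0.05 (psbT) to 0.60 (psbH) in wild type and from -0.28 (psbT) to 0.80 (psbH) in the knockout. The SE of psbT was 0.65, so such ranges may lie within the spread. In the unit of ndhC, ndhK and ndhJ they ran from -0.54 to 0.42 in wild type and from 0.10 to 0.52 in the knockout. The unit from ndhH to ndhD, which also holds psaC, had 7 of 7 genes below 0 in wild type (from -0.65 to -0.09) and 3 of 7 in the knockout (from -0.90 to 0.28). In the unit of petL, petG and psaJ 3 of 3 lay below 0 in the knockout (from -1.14 to -0.02) and 2 of 3 in wild type. These counts depend on the scaling, since with median centring 3 of 7 genes of the unit from ndhH to ndhD lay below 0 in wild type, and of the petL unit 1 of 3 in the knockout and 0 of 3 in wild type.

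Most plastid genes outside the photosynthetic complexes had values below 0 with heat in wild type. Of 26 such genes 23 lay below 0 in wild type (median -0.49) and 14 of 26 in the knockout (median -0.09). Over all 15919 tested probe sets 10395 and 10228 lay below 0, with medians of -0.22 and -0.26. With median centring 18 of 26 and 9 of 26 lay below 0 (medians -0.17 and 0.24). Of the 26 genes only rps18 passed, in the knockout, where 6.78% of all tested probe sets did. It encodes a protein of the small ribosomal subunit and fell in the knockout by 2.27 ± 0.46 (adjusted p = 0.025), with -1.40 ± 0.46 in wild type (adjusted p = 0.17). Its call in the knockout was lost with median centring (adjusted p = 0.057) and without any one of the 4 knockout arrays (adjusted p from 0.068 to 0.18). The 15 ribosomal protein genes had medians of -0.36 and -0.25, and the 4 genes of the plastid-encoded RNA polymerase (rpoA, rpoB, rpoC1, rpoC2) -0.57 and 0.08. The difference between these and the photosynthetic genes was not tested. Relative to the median of all plastid genes on each array, the photosynthetic members had heat medians of 0.38 in wild type and 0.29 in the knockout. That reference holds the 42 members themselves beside the 26 other genes, so it does not set the members against the others.

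Nuclear genes for the same machinery were taken from lists, of which few had a named probe set. The 4 nuclear photosystem genes with a named probe set (PSAE-1, PSAN, PSBW and PSBY, of 23 listed) had medians of 0.49 in wild type and 0.55 in the knockout, and 0 of 4 passed. For light harvesting and Rubisco activase (RCA, LHCB4.1 and LHCB4.2, 3 of 22) the medians were 0.47 and 0.35. For the electron transport, ATP synthase and NDH list (ATPC1, NdhL, NdhN and the PETM locus AT2G26500, 4 of 17) they were 0.32 and 0.42. None of these genes passed. For the first and second list the direction depends on the scaling. Values of the third list after quantile normalization are not given here. After quantile normalization the nuclear photosystem genes deviated by 0.11 and 0.04 in wild-type controls and -0.12 and -0.10 in heated wild type. In the knockout they deviated by 0.15 and 0.06 in the controls and -0.04 and -0.10 after heat. For light harvesting and Rubisco activase these were 0.13 and 0.12, -0.19 and 0.06, 0.10 and 0.12, and -0.11 and -0.23 in the same order. Of 11 genes listed for plastid RNA processing and decay 0 had a named probe set, and of 20 for plastid transcription 1 had one, the gene of the polymerase RPOTmp (AT5G15700), which was too dim to be tested.

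The mitochondrial relatives of the ndh genes are the nad genes of complex I, read by 15 probe sets for 8 genes. Of the 13 tested, 6 read parts of nad1. They were picked for this comparison after their values were known. In wild type 2 of 13 passed and in the knockout 5 of 13, all of them higher after heat, against 1.84% and 3.13% of all tested probe sets. The medians over the 13 were 2.21 and 2.88. In wild type the heated replicates differed, with mean deviations of -0.41 and 1.93 against -1.89 and -0.93 in the controls. In the knockout they were 2.08 and 1.38 after heat and -0.86 and -1.31 in the controls. Values under other scalings are not given here for these probe sets. nad9 rose by 2.21 ± 0.43 in wild type (adjusted p = 0.033) and by 2.98 ± 0.43 in the knockout (adjusted p = 0.0054). The 9 tested ndh genes had medians of -0.23 and 0.10 in the same fit, and the difference between ndh and nad was not tested.

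Whether the loss of HSA32 came with other levels of the plastid RNAs was asked at each temperature. At 22 °C 30 of 42 members lay above 0 for knockout over wild type, with a median of 0.14 against 0.00 for all tested probe sets. The 26 other plastid genes had a median of 0.33, with 16 of 26 above 0. The arrays of the genotypes did not overlap for 8 members with the knockout higher (11.7% of all probe sets, 19.0% of the members) and for 0 members with it lower (9.49% of all). These 8 were psaC (0.79 ± 0.56), psaI (0.65 ± 0.43), psbT (0.59 ± 0.65), ndhD (0.59 ± 0.68), ndhE (0.59 ± 0.63), ndhG (0.59 ± 0.49), psbM (0.35 ± 0.43) and ndhC (0.17 ± 0.28). Each had adjusted p = 1. Relative to the median of all plastid genes on each array, members included, 22 of 42 members lay above 0, with a median of 0.0083. For NDH 9 of 9 tested genes lay above 0 (median 0.19), while 8 of 9 did after quantile normalization and 6 of 9 relative to the plastid median (0.07).

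After heat 35 of 42 members lay above 0 for the knockout, with a median of 0.23 against -0.01 for all tested probe sets. The 26 other plastid genes had a median of 0.51, with 20 of 26 above 0, so the shift was not particular to the members. The median of the members rests on single arrays. Without heated wild-type replicate 1 the median was 0.04 with 23 of 42 above 0, and without heated knockout replicate 1 it was 0.01 with 22 of 42. Without heated wild-type replicate 2 and without heated knockout replicate 2 it was 0.45 and 0.47. Relative to the median of all plastid genes on each array, members included, it was -0.25, with 11 of 42 above 0. No member passed, and all had adjusted p = 1. By complex the medians were 0.48 for photosystem I, 0.48 for NDH, 0.19 for ATP synthase, 0.15 for photosystem II and -0.21 for cytochrome b6f. Without heated wild-type replicate 1 they were 0.17, 0.26, 0.22, -0.20 and -0.45 in the same order, and 2 of 15 photosystem II genes lay above 0 in place of 12. The arrays did not overlap for 6 members with the knockout higher (9.94% of all, 14.3% of the members), which were psaI, petA, ndhK, rbcL, ndhA and ndhI, and for 3 with it lower (11.5% of all, 7.14% of the members), which were petN, psbK and petD.

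**Figure D4:**
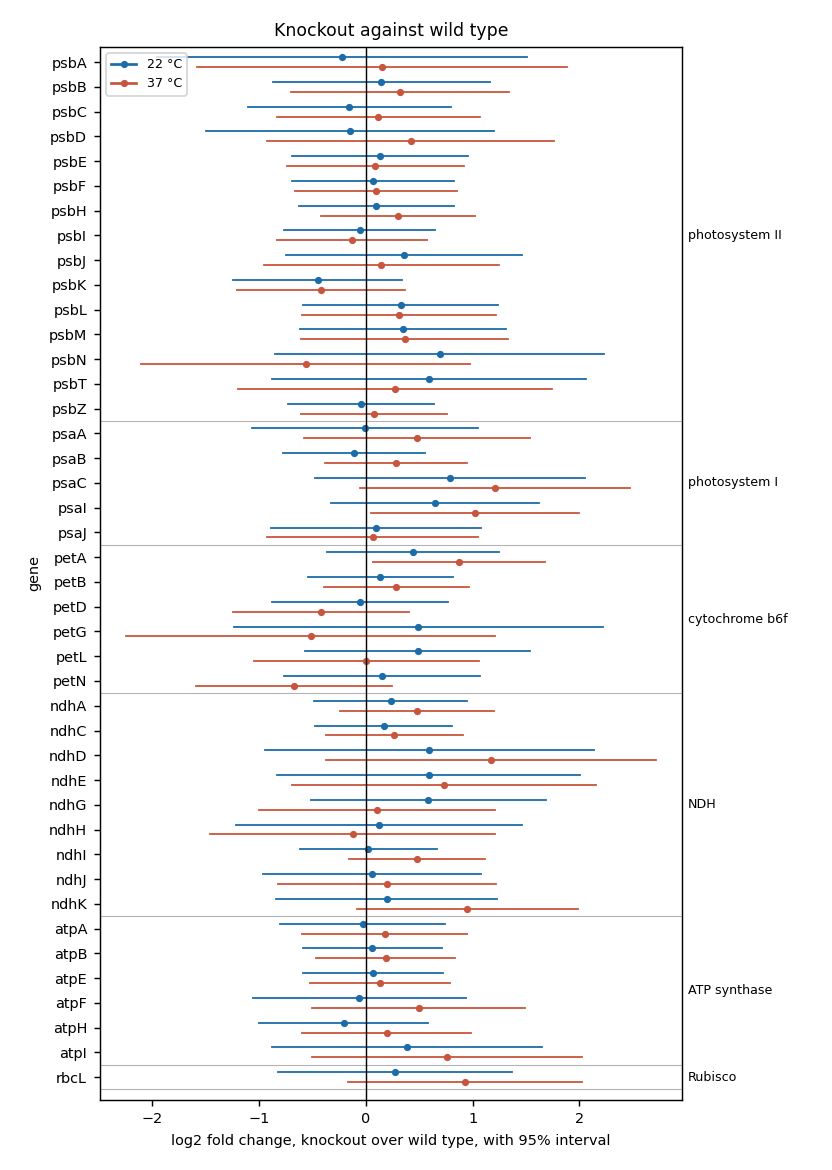
Log2 fold change of knockout over wild type for each tested plastid photosynthesis gene at 22 °C (blue) and 37 °C (red), from limma with the 95% interval, n = 2 arrays a group. All 42 intervals at 22 °C hold 0, and after heat those of psaI and petA do not before adjustment.

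psaI and petA, the members with the smallest p between the genotypes after heat, lie close together on the plastid genome, with ycf4 and cemA in between and accD beside psaI. psaI read 2636 and 3921 in wild-type controls, 1912 and 4172 in heated wild type, 4837 and 5282 in the knockout controls and 6912 and 4822 in the heated knockout. petA read 4756 and 7078 in wild-type controls, 4835 and 6721 in heated wild type, 6425 and 9650.1 in the knockout controls and 9499.6 and 11479.6 in the heated knockout. In heated shoots both knockout arrays lay above both wild-type arrays for each gene, with 1.02 ± 0.43 for psaI and 0.87 ± 0.35 for petA (unadjusted p = 0.041 and 0.037, adjusted p = 1). The genes around them had 1.39 ± 0.54 (accD, a subunit of acetyl-CoA carboxylase), 1.09 ± 0.59 (ycf4, a photosystem I assembly factor) and 1.11 ± 0.43 (cemA, an envelope membrane protein), also with adjusted p = 1. Without heated wild-type replicate 1, which was the lowest of the heated arrays for psaI and petA, the values were 0.47 for psaI and 0.63 for petA. psaC and ndhD had the largest values of all members, 1.21 ± 0.56 and 1.17 ± 0.68, but their arrays overlapped, and without heated wild-type replicate 1 they were 0.64 for psaC and 0.26 for ndhD.

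No member passed the test for a heat response that differs between the genotypes. In the interaction the median was 0.14 over the members and -0.01 over all tested probe sets, 29 of 42 lay above 0, and all had adjusted p = 1. Over the 26 other plastid genes the median was 0.34, with 22 of 26 above 0. The values of the members ran from -1.25 (psbN) to 0.76 (ndhK). The SE was largest for psbA (1.08) and petG (1.08). Without heated knockout replicate 1 the median was -0.20, and without heated wild-type replicate 1 it was -0.11.

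As a description of likeness, the mean log2 signal of the tested members over the 8 arrays was set against each of 8748 other probe sets with 1 gene. The highest Pearson correlations, between 0.94 and 0.99 over 8 arrays, belonged to 9 nuclear genes and 1 plastid gene. The nuclear ones were AT5G02460, AT5G48760, AT3G06700, AT5G10620, AT4G32340, LigB (AT4G15093), AT1G74640, AT1G67430 and AT2G20870. The plastid gene was ccsA (0.95), which encodes a factor of cytochrome c assembly. These points share arrays and scaling, and the genes were the best of all those searched.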

How the data were processed

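The deposited table holds 1 signal intensity for each of 22810 probe sets on each of 8 arrays. No source used here gives the algorithm behind these values, and the deposited intensities were used as they are. Signals were taken as log2(signal + 29), 29 being their 20th percentile, and 64 control probe sets and the dimmest 30% by mean signal (up to 61.7) were left out. limma 3.58.1 in R 4.3.3 was fitted to the other 15919 with a mean for each of the 4 groups and a variance trend (4 residual and 4.79 prior degrees of freedom). The contrasts were heat in each genotype, genotype at each temperature and the interaction, each adjusted by Benjamini-Hochberg. Having 2 arrays a group limits the precision. A p-value sets a difference against the spread between biological replicates, estimated over the 4 groups together and moderated over all tested probe sets. The test was checked on simulated data with independent noise. The planted changes were larger than any value of a member, so the check does not cover changes of the members' size.

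Gene names come from the platform annotation, in which 13513 probe sets have 1 gene and 503 several, the rest being unnamed here, and gene order from RefSeq (TAIR10.1). Complexes, gene lists and transcription units were chosen with earlier results of these data known. Values by array are given for up to 3 members of each complex with the smallest adjusted p in a heat contrast, plus psbA and rbcL; psaI and petA were added after their values were seen. Alternatives were other offsets, filters, scalings, moderations and blocks and leaving out arrays.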

Additional observations from a re-analysis of the deposited data

How the results depend on the processing

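Under 18 of 20 alternatives 0 of 42 members passed in every contrast. The count for heat in the knockout became 1 (petN) without both arrays of wild-type replicate 1. Medians over the members moved as follows. For heat in wild type (0.04) the median was 0.36 with median centring, 0.38 with centring on the plastid genes, 0.38 without both arrays of wild-type replicate 1, and from -0.016 to 0.58 with single arrays left out. For heat in the knockout (0.29) it was -0.10 with quantile normalization and 0.62 with median centring. Between the genotypes it was 0.0083 at 22 °C with plastid centring (0.14 before). After heat (0.23) it was -0.25 with plastid centring and 0.011 to 0.47 with single arrays left out. In the interaction (0.14) it was -0.21 with plastid centring, -0.09 without both arrays of wild-type replicate 1 and -0.20 to 0.29 with single arrays left out. The cause was not tested.

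Replicate numbers are shared by the 4 groups, but deviations of same-numbered arrays correlated at 0.54 (wild type) and 0.53 (knockout) between control and heat of a genotype (0.68 and 0.83 over the members) and from -0.39 to -0.24 between genotypes. Same-numbered arrays thus deviated together within each genotype and not across them, no label says what a number marks, and the numbers were not taken to pair all 4 groups. With the replicate block 0 members passed in every contrast, the medians stayed at 0.04 and 0.29 for heat, and the smallest adjusted p was 0.29 in wild type and 0.14 in the knockout, while the count over all probe sets went from 406 to 290 and from 1080 to 675. A crossed replicate block, chosen after seeing the data, gave 1 member (petN) for heat in the knockout and 0 in the other contrasts, and over all probe sets 1406 for heat in wild type and 2859 in the knockout. Dim genes such as petD (62.7 to 133) and ndhF lie near the filter, and their levels are the least certain.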
